A study of Homo sapiens with 6 samples.

Results

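A set of 10 genes whose proteins bind NHE3, a sodium/proton exchanger, regulate it or share its apical membrane was measured in SK-CO15 cells, a human colon adenocarcinoma line. The genes were taken by symbol for that known role, by a rule that uses no measured value although earlier results of these data were known, and made up 10 of the 14884 named genes on the array: EZR, PDZK1, NHERF4, CHP1, CHP2, SGK1, VIL1, DPP4, CDHR2 and MYO7B. RNA of 3 control (Ctrl) and 3 NHE3 knockdown (NHE3kd) samples was hybridised to Affymetrix Human Gene 2.0 ST arrays. Ctrl cells carried a scrambled shRNA, and NHE3kd cells several pooled shRNAs directed at the NHE3 gene SLC9A3, driven by the U6 promoter of a lentiviral vector. Both lines therefore carried the same integrating vector, with EGFP and puromycin resistance, and neither was cloned: each was a polyclonal pool of bright, drug-resistant cells, harvested at confluence with no further treatment. SLC9A3 itself was not analysed here, so its knockdown was not checked on these arrays. The sources used here do not say whether the 3 samples of a group were separate cultures, and p-values reflect no more than the variation among these 6 arrays, which may be technical.

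NHE3 exchanges luminal sodium for cytosolic protons at the microvilli of intestinal and renal epithelial cells. It is tied to the actin core through ezrin and through PDZ scaffold proteins of the NHERF family, needs a small calcineurin homologous protein for its maturation and surface stability, and is raised in activity by the kinase SGK1 downstream of glucocorticoids. The microvilli that hold it are built on actin bundled by villin and are linked at their tips by protocadherins, which are anchored from inside by a complex that includes myosin VIIB.

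Of the 10 genes, 2 rose in NHE3kd cells (VIL1 and DPP4), 2 fell (CDHR2 and MYO7B) and 6 did not pass the test, which was limma's moderated test at a threshold of 0.05 after Benjamini-Hochberg adjustment across the whole array. The same test called 9.96% of all named genes higher and 4.51% lower. At an unadjusted p under 0.05, 5 of the 10 passed. The share of all named genes at that unadjusted threshold was not counted, so this count and like ones below have no background beside them. The arrays of the groups did not overlap for 5 of the 10 genes, the 4 called and EZR, and they did not overlap for 35.8% of all named genes. The median change of the 10 was -0.07 on the log2 scale, with 4 above 0 and 6 below, against -0.0008 over all named genes.

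**Figure D1:**
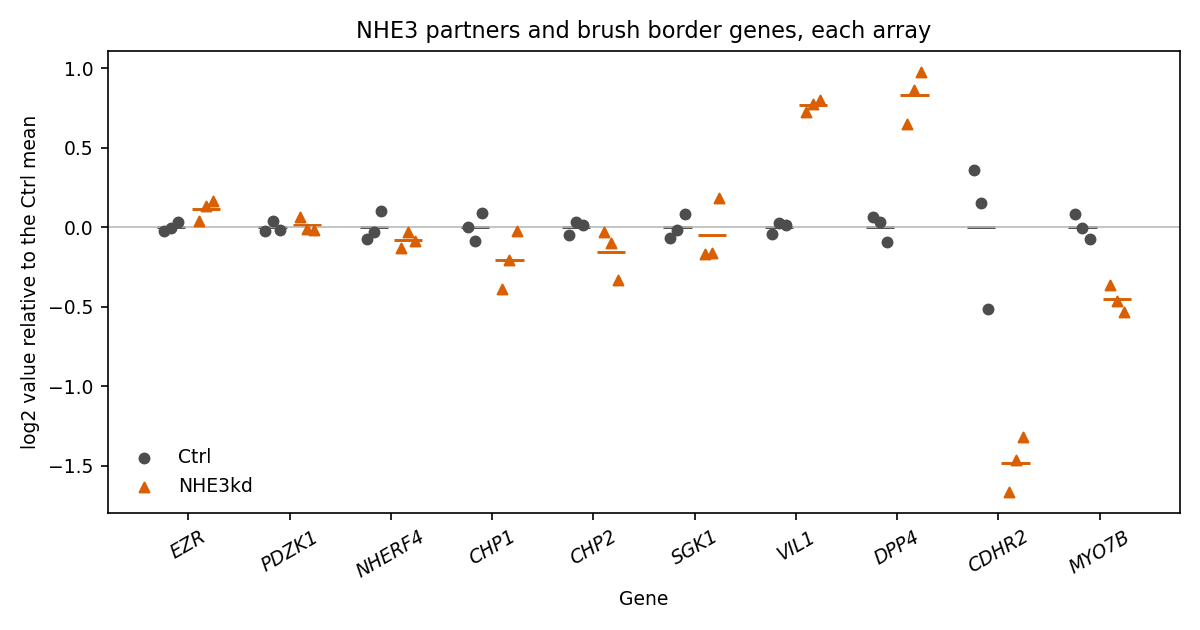
Log2 value of each of the 10 genes on each of the 6 arrays, relative to the mean of the 3 Ctrl arrays, with horizontal bars at the group means. VIL1 and DPP4 lie above the Ctrl arrays on every NHE3kd array, and CDHR2 and MYO7B below them, while the arrays of the other genes lie close together or overlap.

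All values below are log2 values that were centred on the mean of the Ctrl arrays, so a value is a difference from that mean and 1 unit is a doubling. The level at which a gene was expressed is unknown, and neither a dim probe set nor the presence of a cell type marker could be judged from these values. Each of the 10 genes had 1 probe set. Since RNA was taken from a whole population, fewer cells that express a gene cannot be told apart from less of its RNA per cell.

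VIL1 encodes villin, the actin-bundling protein of the microvillus core. It stood at -0.04, 0.03 and 0.01 on Ctrl 1, 4 and 9 and at 0.72, 0.78 and 0.80 on NHE3kd 2, 3 and 10. Every NHE3kd array lay far above every Ctrl array, with standard deviations of only 0.0362 and 0.0378 within the groups. VIL1 rose by 0.77 (SE 0.04, n = 3 per group, 95% interval 0.67 to 0.86), or 1.70-fold (limma, adjusted p = 0.00168). It was placed 409 from the highest of the 14884 named genes, and it stayed past the threshold with any 1 array left out, at adjusted p of 0.00534 to 0.0131.

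DPP4 encodes dipeptidyl peptidase 4, an ectoenzyme of the brush border that is found in a complex with NHE3 in the kidney. It stood at 0.07, 0.03 and -0.10 on the Ctrl arrays and at 0.65, 0.86 and 0.98 on NHE3kd 2, 3 and 10. The groups were well apart, although the NHE3kd arrays differed among themselves more than they did for VIL1 (SD 0.167 against 0.0845 in Ctrl). DPP4 rose by 0.83 (SE 0.10, 95% interval 0.59 to 1.07), or 1.78-fold (limma, adjusted p = 0.00857). The call held with any 1 array left out (adjusted p of 0.0115 to 0.0451). The intervals of DPP4 and VIL1 overlapped, so their order was not settled.

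CDHR2 encodes a protocadherin that links the tips of neighbouring microvilli by binding CDHR5. It stood at 0.36, 0.15 and -0.51 on Ctrl 1, 4 and 9 and at -1.66, -1.46 and -1.32 on NHE3kd 2, 3 and 10. The 3 Ctrl arrays were spread widely, with Ctrl 9 the lowest, and all 3 NHE3kd arrays lay below it. CDHR2 fell by 1.48 (SE 0.24, 95% interval of the change -2.08 to -0.89), and its signal was 2.79-fold lower (limma, adjusted p = 0.0212). It was placed 64 from the lowest of all named genes. Its Ctrl standard deviation of 0.457 was at the 98.3 percentile of the named genes. The call was lost when Ctrl 4, NHE3kd 2, NHE3kd 3 or NHE3kd 10 was left out (adjusted p = 0.0831, 0.0695, 0.0847 and 0.0577), and without Ctrl 9 the change was -1.74 (adjusted p = 0.00683).

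MYO7B encodes the myosin that holds the protocadherin complex at the microvillus tips. It stood at 0.08, -0.01 and -0.07 on the Ctrl arrays and at -0.37, -0.46 and -0.53 on the NHE3kd arrays. The groups did not overlap, and they had a like spread (SD 0.0765 and 0.0835). MYO7B fell by 0.45 (SE 0.06, 95% interval of the change -0.61 to -0.30), a signal 1.37-fold lower (limma, adjusted p = 0.0132). This call was lost without Ctrl 4 (adjusted p = 0.0547) or NHE3kd 3 (adjusted p = 0.0614).

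For each of the 4 called genes the two-sided exact permutation test over the 6 arrays gave p = 0.1, the smallest that 3 against 3 allows. With the same linear fit but no moderation of the variances, and the same adjustment, VIL1 alone passed (adjusted p = 0.027), with DPP4 at 0.0594, MYO7B at 0.0699 and CDHR2 at 0.101. None of the 10 passed when each was tested against a change of 1.5-fold in place of 0, where 2 higher and 1 lower had an unadjusted p under 0.05. After quantile normalization of the centred values the changes were smaller, and VIL1 alone passed (0.53, limma, adjusted p = 0.0173), with DPP4 at 0.58 (0.055), CDHR2 at -1.0 (0.389) and MYO7B at -0.33 (0.149). That setting gives every array the same spread, whereas the standard deviations of the centred values were 0.101 to 0.141 on Ctrl arrays and 0.313 to 0.326 on NHE3kd arrays. Smaller changes were thus built into it, and why calls were lost there was not tested. With 1 array left out no direction of these 4 turned: VIL1 stayed between 0.75 and 0.79, DPP4 between 0.76 and 0.92, MYO7B between -0.50 and -0.41 and CDHR2 between -1.74 and -1.30.

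**Figure D2:**
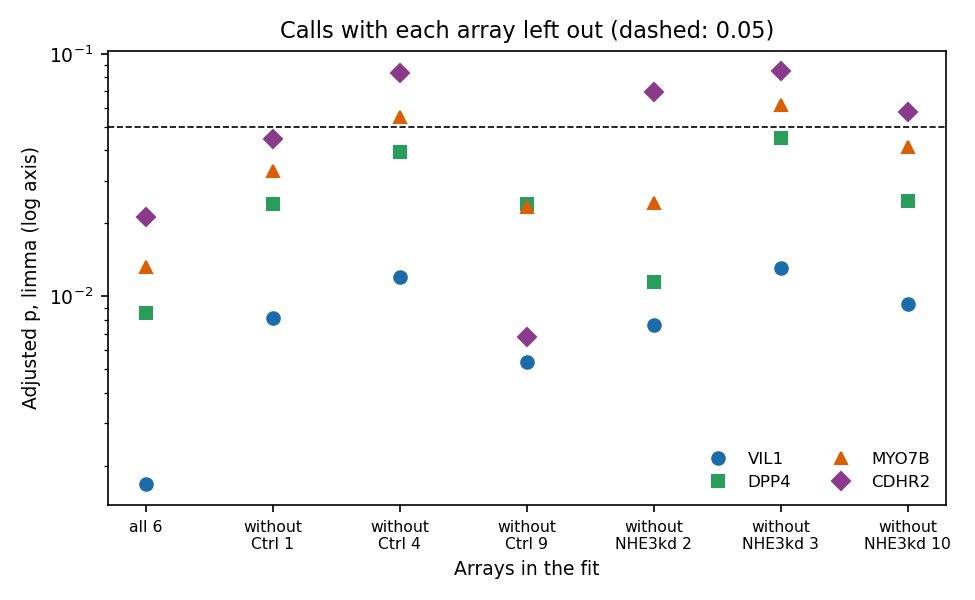
Adjusted p from limma (log axis) of VIL1, DPP4, MYO7B and CDHR2 with all 6 arrays and with each array left out in turn, with the threshold of 0.05 dashed. VIL1 and DPP4 stay below the line throughout, MYO7B crosses it without Ctrl 4 or NHE3kd 3, and CDHR2 lies above it in 4 of the 6 cases.

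The stretches upstream of the start sites of DPP4, CDHR2 and MYO7B are shown because these are called genes with a promoter entry in RefSeq (GRCh38.p14). VIL1 and NHERF4 had none in the table used. Each is the 250 bases before a start, written on the strand of the gene, and capitals mark matches to 6 short motifs searched on both strands: the TATA box (TATAAA), the GC box (GGGCGG), CDX2 (TTTATG), HNF4 (CAAAGNNCA), the HNF1 half-site (GTTAAT) and AP-1 (TGANTCA). The DPP4 window is chr2:162074216-162074465 on the minus strand. CDHR2 has starts on the plus strand with the windows chr5:176542261-176542510 and chr5:176549092-176549341, in this order. MYO7B likewise has chr2:127535433-127535682 and chr2:127619755-127620004 on the plus strand.
DPP4: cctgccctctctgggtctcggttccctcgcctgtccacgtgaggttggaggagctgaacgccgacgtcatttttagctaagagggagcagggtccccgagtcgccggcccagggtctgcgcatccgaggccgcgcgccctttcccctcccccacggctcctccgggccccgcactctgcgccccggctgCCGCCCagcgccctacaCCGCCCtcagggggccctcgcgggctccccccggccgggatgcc
CDHR2, upstream start: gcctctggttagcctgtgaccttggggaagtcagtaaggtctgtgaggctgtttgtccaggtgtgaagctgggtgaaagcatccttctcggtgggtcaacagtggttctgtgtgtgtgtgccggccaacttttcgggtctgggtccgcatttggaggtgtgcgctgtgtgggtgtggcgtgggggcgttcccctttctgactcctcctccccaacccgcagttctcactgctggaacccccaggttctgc
CDHR2, downstream start: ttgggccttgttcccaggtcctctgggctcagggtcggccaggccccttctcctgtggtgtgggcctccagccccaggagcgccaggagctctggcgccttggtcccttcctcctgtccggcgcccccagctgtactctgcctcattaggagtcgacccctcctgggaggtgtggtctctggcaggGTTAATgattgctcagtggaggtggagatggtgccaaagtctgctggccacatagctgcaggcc
MYO7B, upstream start: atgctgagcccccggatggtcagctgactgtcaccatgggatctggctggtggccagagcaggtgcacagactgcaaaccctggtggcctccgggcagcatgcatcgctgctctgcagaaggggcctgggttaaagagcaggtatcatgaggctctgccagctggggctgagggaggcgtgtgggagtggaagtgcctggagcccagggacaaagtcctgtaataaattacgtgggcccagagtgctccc
MYO7B, downstream start: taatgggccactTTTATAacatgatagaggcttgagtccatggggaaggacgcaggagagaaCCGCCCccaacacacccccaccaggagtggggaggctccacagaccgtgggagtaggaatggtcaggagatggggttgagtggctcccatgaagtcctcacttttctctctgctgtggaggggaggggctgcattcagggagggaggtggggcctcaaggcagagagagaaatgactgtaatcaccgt

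The DPP4 window was the richest in G and C of these, at 73.6% against a median of 58% over 35116 windows of the same length. It held 2 GC boxes on the opposite strand, at positions -61 to -56 and -44 to -39 from the start, a motif found in 42.6% of all windows. The CDHR2 windows had 59.2% and 64.4% G and C. The first matched none of the 6 motifs, and the second held an HNF1 half-site at -64 to -59, as 6.23% of all windows do. The first MYO7B window (61.2% G and C) had no match. The second (56.8%) had a TATA box at -238 to -233 and a GC box at -188 to -183, both on the opposite strand. A TATA box was present in 10.7% of all windows. No motif was shared by all of these windows, and the arrays do not show which start was used.

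Among the 10 genes, neither EZR nor the PDZ scaffold genes PDZK1 and NHERF4 passed the test. The scaffold genes NHERF1 and NHERF2 had no named probe set and were not looked at. EZR encodes ezrin, which bridges the NHERF scaffolds and actin. Its Ctrl arrays stood at -0.02, -0.01 and 0.03 and its NHE3kd arrays at 0.04, 0.13 and 0.16, so that the groups were next to each other without overlap. The change was 0.11 (SE 0.04, 95% interval 0.0032 to 0.22), or 1.08-fold, and did not pass (limma, adjusted p = 0.22). PDZK1, also called NHERF3, stood at -0.02, 0.04 and -0.02 against 0.07, -0.01 and -0.02, and its arrays overlapped. Its interval of -0.08 to 0.11 around 0.01 was among the narrowest of the 10 (adjusted p = 0.91). NHERF4, a PDZ scaffold of the same family, stood at -0.07, -0.03 and 0.10 against -0.13, -0.03 and -0.09, again with overlap, and its change of -0.08 (95% interval -0.23 to 0.06) did not pass (adjusted p = 0.53). RefSeq lists pseudogenes of EZR, PDZK1 and CHP1 and an antisense gene of EZR. Whether their transcripts reach these probe sets was not tested.

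CHP1 and CHP2 encode calcineurin homologous proteins, calcium-binding cofactors of sodium/proton exchangers. CHP1 stood at 0.00, -0.09 and 0.09 on the Ctrl arrays and at -0.39, -0.21 and -0.02 on NHE3kd 2, 3 and 10. NHE3kd 2 was the lowest, and NHE3kd 10 lay within the Ctrl arrays. CHP2 stood at -0.05, 0.03 and 0.02 against -0.03, -0.10 and -0.33, where NHE3kd 10 was in turn the lowest and NHE3kd 2 overlapped Ctrl. The changes were -0.21 for CHP1 (95% interval -0.46 to 0.05, limma, adjusted p = 0.34) and -0.15 for CHP2 (-0.36 to 0.06, adjusted p = 0.39). SGK1, the serum- and glucocorticoid-induced kinase, stood at -0.07, -0.02 and 0.09 against -0.17, -0.16 and 0.18. NHE3kd 10 was above every Ctrl array and the other two NHE3kd arrays were below them. Its change of -0.05 had the widest interval of the uncalled genes (-0.32 to 0.22, adjusted p = 0.87).

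**Figure D3:**
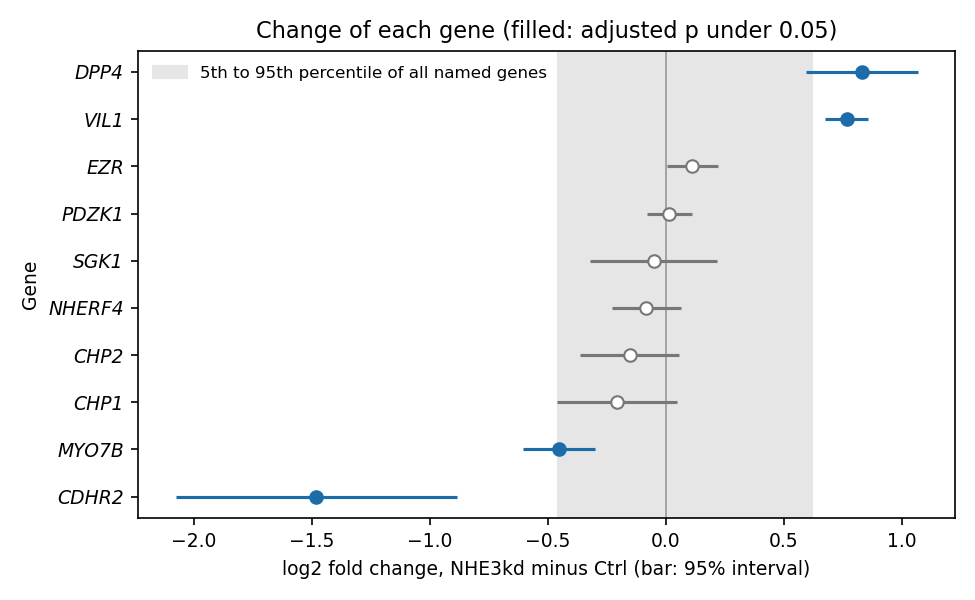
Log2 change (NHE3kd minus Ctrl) of each of the 10 genes with its 95% interval from limma. DPP4 and VIL1 lie apart from EZR above 0, CDHR2 lies apart from MYO7B below 0, and each interval between EZR and MYO7B overlaps that of its neighbour.

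In order of their change, DPP4 and VIL1 came first, and a gap without overlapping intervals parted VIL1 from EZR. From EZR through PDZK1, SGK1, NHERF4, CHP2 and CHP1 to MYO7B, the intervals of neighbours overlapped, and a second gap parted MYO7B from CDHR2. The central 90% of all named genes lay between -0.46 and 0.62. VIL1, DPP4 and CDHR2 were outside that range, MYO7B was just inside it at -0.45, and the 6 uncalled genes were well within it.

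Members were also set against close relatives, and DPP4 against another peptidase of the brush border. The difference between a member and the gene set against it was taken on each array and compared between the groups in 9 pairs, with the two-sided exact permutation test. For CDHR2 against its binding partner CDHR5, the difference was -0.58 to 0.46 on the Ctrl arrays and -1.61 to -1.30 on the NHE3kd arrays, a shift of -1.44 with no overlap. CDHR5 itself changed by -0.04 (limma, adjusted p = 0.741). The shifts were 0.86 for VIL1 against villin-like VILL, -0.32 for MYO7B against the unconventional myosin MYO7A, and 0.85 for DPP4 against the aminopeptidase ANPEP. Ezrin was set against the other ERM proteins: the shift was 1.49 against moesin (MSN), from -0.14 to 0.26 on the Ctrl arrays to 1.25 to 1.62 on the NHE3kd arrays, and -0.07 against radixin (RDX), where the groups overlapped. All 5 pairs without overlap had p = 0.1 by the exact permutation test, 0.18 after adjustment over the 9 pairs, so none passed in a design that cannot go lower. The groups overlapped for CHP1 against CHP2, CHP1 against TESC and SGK1 against SGK2.

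The wider NHE3 complex was described by a list of 33 further scaffold, adaptor and trafficking genes, of which 12 were measured. Here and in the lists below, a gene counted as measured if a probe set was annotated with its symbol alone. The other genes of a list were not looked for among probe sets with several symbols or none, so the array may still cover them. Among the 12 measured, 3 rose, 2 fell and 7 did not pass, with a median change of 0.01. Beside this count and those of the lists below stand the shares over all named genes, 9.96% called higher and 4.51% lower. GOPC, a PDZ protein of the Golgi, rose by 1.58 (SE 0.11, adjusted p = 0.00285), from -0.26 to 0.17 on the Ctrl arrays to 1.55 to 1.60 on the NHE3kd arrays. SNX27, a PDZ sorting nexin of endosomal recycling, rose by 0.71 (adjusted p = 0.0139), and the motor MYO6 by 0.62 at the edge of the threshold (adjusted p = 0.04995). MSN fell by 1.38 (SE 0.16, adjusted p = 0.0092), with Ctrl arrays at 0.11, 0.12 and -0.23 and NHE3kd arrays at -1.58, -1.47 and -1.09. The recycling protein EHD1 fell by 0.54 (adjusted p = 0.0399). With any 1 array left out GOPC and MSN held, while SNX27 was lost in 3 of 6 cases and MYO6 and EHD1 in 5 of 6. All p-values here and in the next 2 lists are from the same limma fit.

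Of 38 genes for kinases and hormone signals that act on NHE3, 18 were measured: 0 rose, 2 fell and 16 did not pass (9 in either direction had an unadjusted p under 0.05), with a median of 0.02. MAPK3 (ERK1) fell by 0.36 (adjusted p = 0.0161), and HSD11B2, which inactivates cortisol, by 0.44 (adjusted p = 0.027). Both calls were lost without Ctrl 4 or NHE3kd 3, and that of HSD11B2 also without Ctrl 1, Ctrl 9 or NHE3kd 10. SGK2 changed by -0.06 (adjusted p = 0.70) and the kinase STK39 by 0.46 (adjusted p = 0.0744).

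Of 45 further genes of the microvillus core and of the adhesion between microvilli, 31 were measured. COBL, an actin nucleator, rose by 0.58 (adjusted p = 0.0119) and STK26, the kinase that phosphorylates ezrin as microvilli form, by 0.65 (adjusted p = 0.0166). CLIC4 fell by 0.92 (adjusted p = 0.0324), and the other 28 did not pass, with a median of -0.04 over the list. The partners of CDHR2 and MYO7B in the tip complex were among these: ANKS4B changed by -0.14 (adjusted p = 0.41) and CALML4 by 0.24 (adjusted p = 0.178). The calls of COBL and STK26 were lost without Ctrl 4 or NHE3kd 3, and that of CLIC4 in 5 of 6 cases, all but the one without Ctrl 9.

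Of 47 hydrolases, transporters and other membrane proteins of the brush border, 20 were measured, of which 2 rose, 3 fell and 15 did not pass, with a median of -0.0038. LRP2, the endocytic receptor megalin, rose by 1.91 (SE 0.13, limma, adjusted p = 0.00258), from -0.27 to 0.22 on the Ctrl arrays to 1.84 to 1.97 on the NHE3kd arrays. ENPEP, an aminopeptidase, rose by 0.36 (adjusted p = 0.00899). CEACAM1 fell by 0.75 (adjusted p = 0.00717), the tetraspanin TSPAN8 by 0.60 (adjusted p = 0.00285) and NAALADL1 by 0.16 (adjusted p = 0.0471). Of these 5, NAALADL1 lost its call whichever array was left out, and the others kept theirs. ANPEP changed by -0.02 (adjusted p = 0.85).

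**Figure D4:**
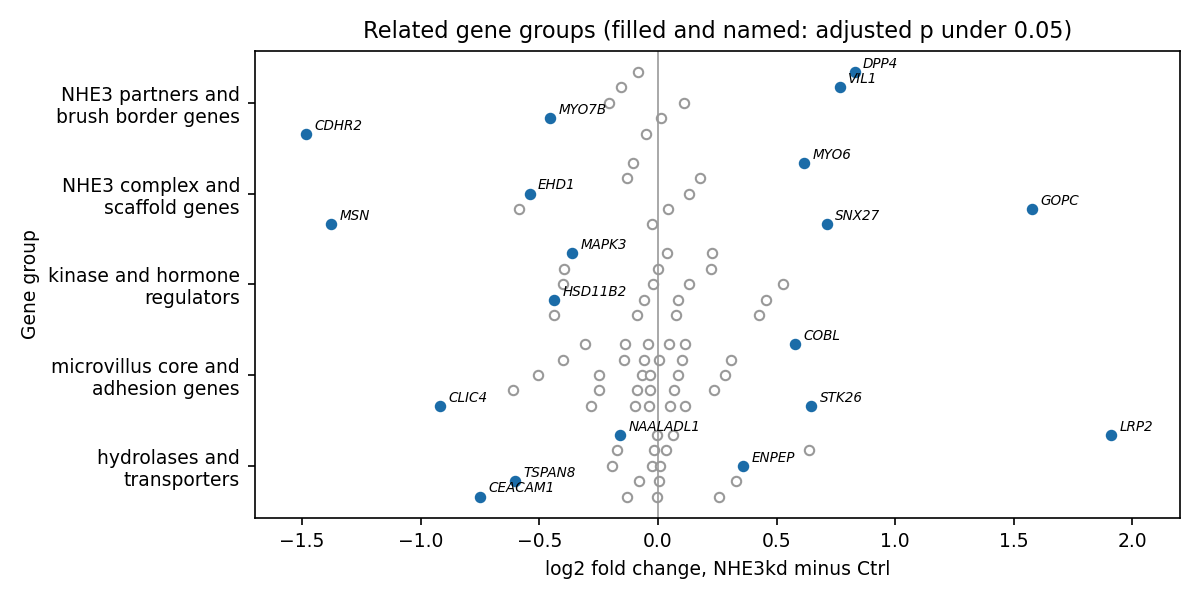
Log2 change (NHE3kd minus Ctrl) of the 10 genes and of the measured genes of the 4 related lists, with genes past an adjusted p of 0.05 filled and named and vertical offsets for legibility alone. The called genes lie on both sides of 0, from CDHR2 at -1.48 to LRP2 at 1.91.

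The genes nearest to CDHR2 over the 6 arrays, by root mean square difference in log2 value, were CD68 (0.109), FST (0.114) and ATG16L1 (0.126). For DPP4 they were TOX3 (0.0441), VEZF1 (0.0546) and PRR7-AS1 (0.0551).

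Markers of cell identity were set beside these results. Of 25 measured genes of colonic epithelial identity, 2 rose (GATA6 by 0.56, limma, adjusted p = 0.00364, and KLF5 by 0.62, adjusted p = 0.03998) and 1 fell (GUCA2A by 0.19, adjusted p = 0.044). Over all named genes 9.96% were called higher and 4.51% lower. The calls of KLF5 and GUCA2A were lost in 5 and 6 of the 6 cases with 1 array left out. CDX2 changed by -0.12 (adjusted p = 0.626) and EPCAM by 0.02. Of 20 measured squamous epithelial genes, 9 fell and 0 rose, with a median of -0.54. The mean over that list was -0.18 to 0.14 on the Ctrl arrays and -0.90 to -0.82 on the NHE3kd arrays, and S100A7 fell by 3.73, the lowest of all named genes (adjusted p = 0.00864). The count of 9 became 5 without NHE3kd 2 or NHE3kd 3. None of 6 fibroblast genes passed, nor did any have an unadjusted p under 0.05. The part of these lists in the changes of VIL1, DPP4, CDHR2 and MYO7B was not tested.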

How the data were processed

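Total RNA of 3 Ctrl and 3 NHE3kd samples was labelled and hybridised to Human Gene 2.0 ST arrays. The labelling kit is the Ambion WT Expression kit per the labels and the WT PLUS kit per the study's methods. The authors summarised the arrays with RMA16 in GeneSpring GX (version not given in the sources used here), then deposited log2 values centred on the Ctrl mean. Ctrl means were at most 1.27e-06 away from 0 for any probe set, so that scale, centring and direction are known, whereas expression levels are not. The submitters' processing notes name the build hg19. Medians over the 48144 probe sets were -0.00577, 0.00181 and -0.000999 on Ctrl 1, 4 and 9 and -0.000274, -0.00852 and -0.0185 on NHE3kd 2, 3 and 10, and standard deviations 0.101 to 0.141 and 0.313 to 0.326. No scanner files were used here, so scan batches were not looked for. The number of arrays limits the precision.

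Probe sets were named from the platform annotation, with symbols updated through RefSeq. A gene's probe sets were averaged, which gave 14884 named genes from 16098 probe sets with 1 symbol. NHE3kd and Ctrl arrays were compared with limma 3.58.1 (lmFit and eBayes) in R 4.3.3, with 4 residual and 1.61 prior degrees of freedom, no covariate, and Benjamini-Hochberg adjustment over all probe sets. The code was tested on simulated data. The members, and the genes past the threshold in the related lists, were named, with the genes set against members in pairs. The members and lists were chosen with earlier results of these data known. The alternatives were an unmoderated equal-variance t-test, Welch's test, array weights, equal medians, quantile normalization, named probe sets alone, the number in each sample's title as a covariate, a test against 1.5-fold, the most variable probe set of a gene, identical probe sets counted once, and each array left out. Those of the marker lists were added after the data were seen.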

Additional observations from a re-analysis of the deposited data

How the results depend on the processing

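Levels, background and scan batches are unknown, and 3 arrays per group limit the precision. No paired analysis was run, since the groups share no title numbers and the sources used here do not say what those numbers mean. Whether the arrays were handled in pairs or in the order of these numbers was not tested. Over 40 single-gene results and 640 alternatives, 481 kept direction and side of the threshold, 149 lost the call, 5 passed it anew and 5 turned in direction, none of the last a called gene. These were PDZK1 with array weights (-0.0019) and without NHE3kd 2 (range over the arrays left out -0.012 to 0.034), SGK1 without NHE3kd 2 or NHE3kd 3 (range -0.17 to 0.0082) and ANPEP without Ctrl 4 (range -0.029 to 0.0025).

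Of the 10 members, 1 rose under an unmoderated t-test, 1 with quantile normalization, and 0 under Welch's test and against 1.5-fold (limma); 0 fell under each of these 4. At an unadjusted p under 0.05, 2 rose and 2 fell in each, except that 1 fell against 1.5-fold. With 1 array left out, 0 to 2 fell. In the NHE3 complex list the 3 that rose became 1 (t-test), 0 (Welch, quantile) and 1 (1.5-fold), with 1 to 3 over the arrays left out, and the 2 that fell became 0 in all 4, with 1 to 2 over the arrays left out. In the kinase list 1 rose with named probe sets alone and with the title number as covariate, with 0 to 1 over the arrays left out, and the 2 that fell became 0 in all 4, with 0 to 3 over the arrays left out. In the microvillus list the 2 that rose became 0 in all 4, with 0 to 2, and the 1 that fell became 0 in all 4, 2 with array weights and with named probe sets alone, and 3 with the title number, with 0 to 2. In the hydrolase list the 2 that rose became 0 (Welch, quantile), 4 (title number) and 1 (1.5-fold), and the 3 that fell became 1 (t-test, quantile) and 0 (Welch, 1.5-fold). In these 4 settings, 0 to 5 genes per list and direction of these 4 lists had an unadjusted p under 0.05. The 9 squamous genes that fell became 2 (t-test, quantile), 0 (Welch) and 1 (1.5-fold). Welch's test called 0 genes in every list here, the marker lists included. How many genes of the whole array passed with it, or with the t-test, quantile normalization or the test against 1.5-fold, was not counted. A 0 in these settings therefore cannot be read as particular to these genes. Cases in which a call was lost were not tested for their cause.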

Other observations

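A few genes of the brush border and of colonic identity were uneven among arrays and are given as values, chosen after they were seen. MME, the peptidase neprilysin, stood at -0.03, -0.04 and 0.07 on Ctrl 1, 4 and 9 and at 0.40, 0.44 and 1.07 on NHE3kd 2, 3 and 10, so that NHE3kd 10 lay apart from the other NHE3kd arrays while no array of one group overlapped the other. Its change was 0.64 (limma, adjusted p = 0.114), and without NHE3kd 10 it was 0.42 and passed (adjusted p = 0.0264). With any other array left out MME did not pass (limma, adjusted p of 0.121 to 0.272). KRT20, the keratin of differentiated colonocytes, stood at -0.26, -0.24 and 0.49 on the Ctrl arrays and at -0.95, -0.95 and -0.68 on the NHE3kd arrays. Ctrl 9 was its highest Ctrl array, as it was the lowest for CDHR2. KRT20 changed by -0.86 (adjusted p = 0.0814), and without Ctrl 9 by -0.61, which passed (adjusted p = 0.0342). With any other array left out KRT20 did not pass (limma, adjusted p of 0.0915 to 0.236). Since the uneven arrays were seen first, the passes without them are not calls.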
